A study of Mus musculus with 6 samples.

Results

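Protein-coding genes with a Chd4 peak near the start of transcription in each of 3 deposited peak lists, named siSCR, iKO and siSeh1, are described here. They were selected on the measured peaks: a gene became a member when each list held at least 1 peak assigned to it within 1000 bp of its start site. The rule gave 223 genes of the 3524 protein-coding genes that had a promoter peak in any of the 6 lists of the series. They were 62.29% of the 358 promoter genes of siSCR, 19.6% of the 1138 of iKO and 8.593% of the 2595 of siSeh1. Against the 21900 protein-coding genes of the reference, promoter genes made up 1.63% in siSCR, 5.2% in iKO and 11.8% in siSeh1, and the genes in all 3 lists made up 1.02%. Presence and distance in these 3 lists were used by the rule, and score picked the peak of each gene. All of these are given as description. What the rule did not use was the DNA sequence of the promoters and the other 3 lists of the series. The positions of the summits relative to that sequence were partly set in advance. The rule kept summits within 1000 bp of the start site, and the promoter entry nearest the summits was taken.

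Primary neural stem cells of the P0 mouse cortex were kept in growth medium with EGF and bFGF, and all 6 libraries were made by chromatin immunoprecipitation and sequencing. Each of the 6 groups was 1 library, so no value here has a replicate and no test between groups was made. The Chd4 siSCR and siSeh1 cells were wild type in growth medium, the Chd4 iKO cells had the mutant genotype and 4-OH-TAM, and the Chd4 Ctrl cells were wild type. For Seh1, the Ctrl cells were wild type, and the flag library was titled iKO but has the genotype wild type with 4-OH-TAM. The labels do not spell out iKO, siSCR or siSeh1, and the gene that is mutant, the driver of any Cre, the number of animals and the input were not stated in the labels used here. The 3 lists differed in length, with 2606 peaks in siSCR, 21294 in iKO and 26935 in siSeh1, and the depth of the libraries is unknown. What sets the length of a list was not tested. Of the fixed markers of cell types, 0 of 10 neural stem cell markers and 0 of 8 neuronal markers were members, and 0 markers of the other cell types were. Members were 1.02% of all protein-coding genes, so 0 among so few markers is near that share. In siSeh1 a promoter peak was found for 3 of 10 neural stem cell markers (Hes1, Lhx2 and Sox2) and 3 of 8 oligodendrocyte lineage markers (Olig1, Olig2 and Sox10). It was also found for 1 of 5 endothelium and pericyte markers (Pdgfrb), and for 0 of 8 neuronal, 0 of 5 astrocyte and 0 of 5 microglia markers. The share over all protein-coding genes was 11.8% in siSeh1, so such small counts show no pattern of cell types. In iKO, 1 neural stem cell and 1 oligodendrocyte lineage marker had a promoter peak, and in siSCR 0 markers did. A peak list does not measure expression, so it does not show whether the labelled cell type was present.

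Chd4 is the motor subunit of the nucleosome remodelling and deacetylase complex, NuRD, which couples ATP-driven nucleosome movement to the removal of acetyl groups from histones. NuRD occupies both silent and active promoters and is known in the developing cortex for its part in progenitor division and neuronal differentiation. It does not read a DNA sequence by itself in the way a transcription factor does. The CCAAT box is a classical upstream promoter element bound by the trimeric factor NF-Y, and the GC box is bound by factors of the Sp family. Genes of the cell cycle, of the endoplasmic reticulum and of sterol synthesis are textbook carriers of CCAAT boxes.

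The sequences below are 121 bases of reference promoter centred on the middle one of the 3 Chd4 summits, which is base 61 of each line. They come from the RefSeq promoter table of GRCm38.p6, read 5′ to 3′ on the strand of the gene, and all bases lie upstream of the start site. Capitals mark CCAAT on the gene's strand or, as ATTGG, on the other strand. The first 5 are high-ranking members with several boxes around the summit.

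Ilf2 (chr3:90476020-90476140, plus strand): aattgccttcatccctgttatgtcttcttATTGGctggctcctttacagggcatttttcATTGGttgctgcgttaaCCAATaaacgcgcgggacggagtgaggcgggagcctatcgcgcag
Tubb4b (chr2:25224803-25224923, minus strand): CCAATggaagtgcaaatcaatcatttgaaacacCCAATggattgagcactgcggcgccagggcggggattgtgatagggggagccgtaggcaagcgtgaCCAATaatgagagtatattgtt
Pgp (chr17:24470293-24470413, plus strand): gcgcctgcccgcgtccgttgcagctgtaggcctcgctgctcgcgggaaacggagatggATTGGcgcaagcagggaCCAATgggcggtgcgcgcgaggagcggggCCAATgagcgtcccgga
Camta1 (chr4:151861844-151861964, minus strand): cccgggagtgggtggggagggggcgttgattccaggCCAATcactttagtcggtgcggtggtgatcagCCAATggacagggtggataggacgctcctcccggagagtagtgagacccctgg
Ska2 (chr11:87109021-87109141, plus strand): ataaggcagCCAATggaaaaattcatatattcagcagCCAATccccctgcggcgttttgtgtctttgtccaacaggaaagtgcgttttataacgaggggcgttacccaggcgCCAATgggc

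In Ilf2 the middle summit was 1 bp from the centre of a box, with other boxes 29 bp before and 18 bp after it. The middle summit of Pgp fell on the centre of a box at 0 bp, and the next boxes of the promoter stood 17 and 46 bp further towards the gene. Camta1 had boxes 22 bp before and 10 bp after the summit. In Ska2 the boxes stood on either side, 21 bp before and 54 bp after. Tubb4b differed in that its summit was 25 bp from the nearest box and 1.5 bp from a GC box. The next set is shown because its genes belong to the function groups described further on: a Polycomb methyltransferase (Ezh2), a mitotic kinetochore protein (Cenpf), a mitotic ubiquitin-conjugating enzyme (Ube2c), an endoplasmic reticulum co-chaperone (Dnajc3), a subunit of the mitochondrial ATP synthase (Atp5b) and an inhibitor of basic helix-loop-helix factors (Id2).

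Ezh2 (chr6:47595046-47595166, minus strand): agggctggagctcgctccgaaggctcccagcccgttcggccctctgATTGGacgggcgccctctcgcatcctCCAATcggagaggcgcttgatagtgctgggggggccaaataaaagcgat
Cenpf (chr1:189688126-189688246, minus strand): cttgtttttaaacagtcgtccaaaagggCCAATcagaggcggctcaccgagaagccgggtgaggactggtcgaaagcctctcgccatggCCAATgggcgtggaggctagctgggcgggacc
Ube2c (chr2:164769737-164769857, plus strand): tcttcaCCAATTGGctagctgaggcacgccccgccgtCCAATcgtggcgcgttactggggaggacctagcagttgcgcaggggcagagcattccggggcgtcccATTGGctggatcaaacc
Dnajc3 (chr14:118937754-118937874, plus strand): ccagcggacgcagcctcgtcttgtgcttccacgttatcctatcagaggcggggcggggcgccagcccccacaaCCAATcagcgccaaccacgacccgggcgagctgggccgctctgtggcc
Atp5b (chr10:128083076-128083196, plus strand): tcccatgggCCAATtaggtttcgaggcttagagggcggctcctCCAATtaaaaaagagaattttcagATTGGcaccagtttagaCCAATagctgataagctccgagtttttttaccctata
Id2 (chr12:25096118-25096238, minus strand): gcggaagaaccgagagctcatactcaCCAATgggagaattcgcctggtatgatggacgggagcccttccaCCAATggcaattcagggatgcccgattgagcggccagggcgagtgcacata

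In Ezh2 the summit lay between boxes 12 bp before and 14 bp after it. In Cenpf it lay between boxes 30 bp before and 31 bp after it. Ube2c carried 6 boxes in its 300 bases, of which the first pair in the line overlaps because its letters read the same on both strands. Dnajc3 held a box followed by CCACG after 9 bases, which is the spelling of the ER stress element, so this element and its CCAAT box share letters. Atp5b had 4 boxes within the line. Other members near the top of the ranking had no box at the summit. In Denr, which had the highest mean percentile, the nearest box was 143 bp from the middle summit. Upf1 had 0 boxes in its 300 bases, with all 3 summits inside. Ehmt1, a histone H3 lysine 9 methyltransferase, is shown as a contrast: its peak ranked 32 of siSCR, 30 of iKO and 5 of siSeh1. Its 300 bases hold 0 CCAAT boxes and 3 GC boxes, and no capital appears in its line.

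Ehmt1 (chr2:24919643-24919763, minus strand): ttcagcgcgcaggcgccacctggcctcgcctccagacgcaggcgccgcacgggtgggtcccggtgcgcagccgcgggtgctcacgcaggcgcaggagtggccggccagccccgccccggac

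A promoter sequence of 300 bases, from 250 before to 50 after the start site, was found for 190 of the 223 members. CCAAT on either strand was present in 172 of these 190, or 90.53% (exact Clopper-Pearson 95% interval 85.44 to 94.29, counting error only). Over 21263 promoters of protein-coding genes in the same table the share was 38.19%, and over the 9600 of them that are CpG rich it was 36.1%. The intervals of the members and of all promoters do not overlap. Most member promoters held several boxes. At least 2 boxes were present in 74.74% of members and 12.81% of all promoters, and at least 3 in 51.05% and 3.918%. The mean was 2.542 boxes a member promoter and 0.5661 a promoter over the whole table, and the most was 8, in Arntl, which encodes the circadian factor BMAL1.

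Genes of other combinations of lists carried the box too. The share was 80.35% (76.12 to 84.12, n = 402) for genes of iKO and siSeh1 but not siSCR, 80.33% (68.16 to 89.4, n = 61) for siSCR and siSeh1 alone, and 93.33% (68.05 to 99.83, n = 15) for siSCR and iKO alone. For genes of a single list it was 62.16% (44.76 to 77.54, n = 37) in siSCR, 50.43% (45.04 to 55.81, n = 347) in iKO and 55.24% (52.68 to 57.78, n = 1497) in siSeh1. The interval of the members overlaps those of the 2 other classes that include siSCR and another list, and lies above those of the remaining classes. The siSCR-only interval overlaps those of all 3 classes of gene in 2 lists. Promoter genes of the Seh1 flag list had a share of 44.16% (37.65 to 50.82, n = 231) and those of the Seh1 Ctrl list 34.29% (27.29 to 41.83, n = 175). At least 2 boxes were present in 12.99% and 7.429% of these, next to 12.81% of all promoters.

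**Figure D1:**
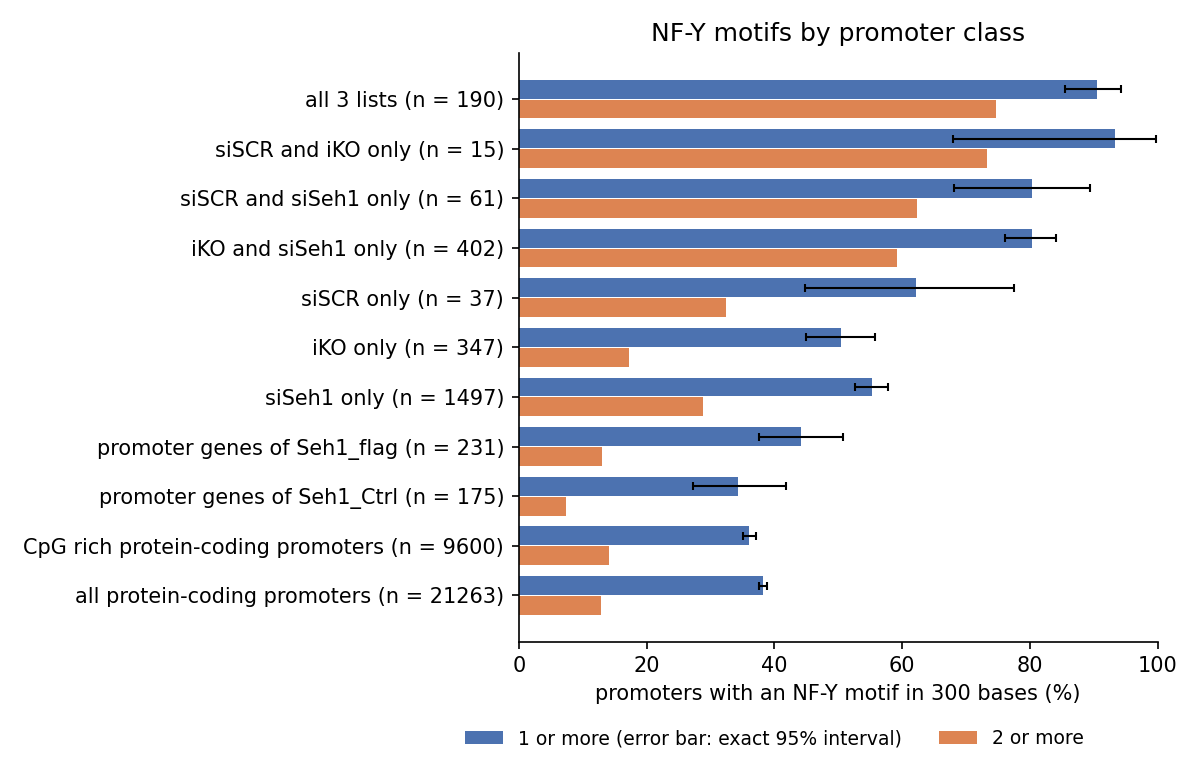
Share of promoters (x axis, %) with 1 or more (blue, with exact 95% interval) and 2 or more (orange) CCAAT boxes, labelled NF-Y motif, for each class of promoter genes (y axis, n promoters with sequence). Genes in all 3 Chd4 lists stand at 90.53% and 74.74%, and all protein-coding promoters at 38.19% and 12.81%.

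CCAAT was looked for among 20 motifs and singled out after all their shares were seen, so every word of 5 letters was counted as well. Of the 512 words, each joined with its opposite strand, CCAAT had the greatest excess of members over CpG-rich promoters, 54.42 percentage points. The next word, GATTG with CAATC, had 42.36 points and shares 4 letters with it. The words GCCAA, 84.21% of members against 49.04% of CpG-rich promoters, and ACCAA, 61.58% against 31.28%, add the base before the box. Read on the strand of the box, the base before CCAAT was A or G in 80.67% of 481 member boxes and 61.55% of 11937 boxes of all promoters. The base after was C or G in 78.17% and 67.37%. Both together with A or G as the second base after, the flanks of the usual NF-Y consensus, were found in 54.68% of member boxes, 32.48% of all boxes and 42.68% of boxes in CpG-rich promoters. Neighbouring boxes were a median of 43 bp apart in members and 49 bp in all promoters, and 25 to 40 bp apart in 33.44% and 24.67% of pairs. In CpG-rich promoters that last share was 29.05%, so the spacing differed little.

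The Chd4 summits lay close to the boxes. All 3 summits fell inside the 300 bases in 138 members, and 132 of these had a box. The nearest box was a median of 18.5 bp from the middle summit (quartiles 8.75 and 32.25 bp), and it was within 50 bp in 121 members. Taken list by list, the median was 18 bp in siSCR, 16 bp in iKO and 19 bp in siSeh1. The nearest GC box was a median of 49 bp away among the 118 members that had one, and within 50 bp in 59. Over these members the position of the middle summit and the mean position of the boxes had a Spearman rho of 0.5987 for CCAAT and 0.0606 for GC boxes, given as a description because the points share libraries and base composition. Both summits and CCAAT boxes favour the stretch around 100 bp upstream, where the mean box position had a median of −102.8 bp. The part of this shared position in the nearness was not tested.

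**Figure D2:**
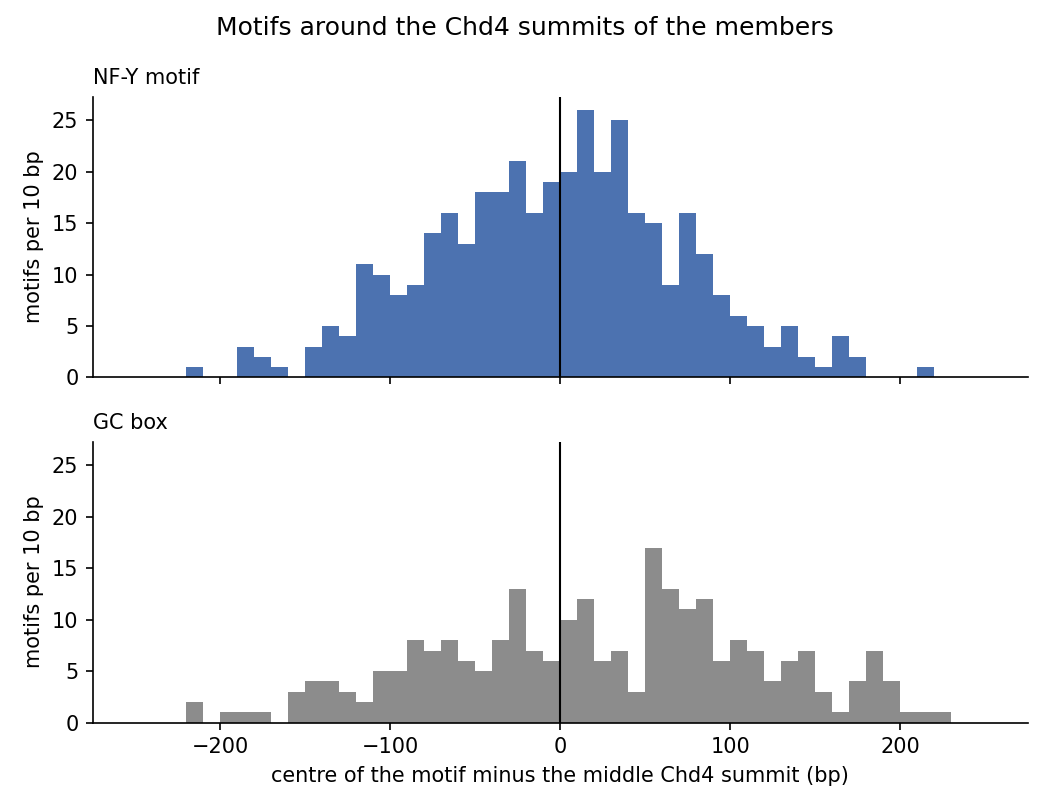
Number of motifs per 10 bp (y axis) by distance of the motif's centre from the middle Chd4 summit (x axis, bp, in the direction of transcription) for CCAAT boxes (upper, labelled NF-Y motif) and GC boxes (lower) in the 138 members with all 3 summits inside the sequence. CCAAT boxes are most frequent around the summit and GC boxes show no such peak there.

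Nearness was shared with other classes. With only the middle summit required to fall inside the sequence, a box lay within 50 bp in 137 of 160 members, or 85.62%. It did so in 77.56% of 312 genes of iKO and siSeh1 alone and 76.47% of 51 genes of siSCR and siSeh1 alone. For genes of 1 list the share was 55.56% of 18 in siSCR, 47.91% of 935 in siSeh1 and 34.9% of 149 in iKO. Where a box was present, its median distance was 19 bp for members, 19.5 bp for iKO and siSeh1 alone and 22 bp for siSCR and siSeh1 alone. It was 20 bp for siSCR alone, 25 bp for siSeh1 alone and 47 bp for iKO alone, so a single list did not always mean a greater distance. The class of 16 genes in siSCR and iKO alone was left out here.

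Within each list, promoters with higher scores carried CCAAT more often. The promoter genes with sequence were split into 4 sets of equal size by score within their list. In siSeh1 the share went from 85.13% (81.84 to 88.03) in the set with the highest scores to 42.27% (38.05 to 46.58) in the set with the lowest. In iKO it went from 89.96% (85.43 to 93.46) to 50% (43.47 to 56.53). In siSCR it went from 94.74% (87.07 to 98.55) to 72% (60.44 to 81.76). Leaving out the members kept the order: 83.46% to 42.27% in siSeh1, 90.15% to 48.7% in iKO, and 100% to 58.7% in siSCR, where only 15 genes remained in the first set. Of the 190 members, 151 were in the first set in siSeh1 and 107 in iKO. In siSCR they were spread over the 4 sets, with 61, 52, 48 and 29. Among the members themselves the number of boxes showed no order with rank: the median of the mean percentile was 95.18 for the 18 without a box, 91.14 for the 30 with 1, 94.07 for the 45 with 2 and 94.06 for the 97 with 3 or more.

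**Figure D3:**
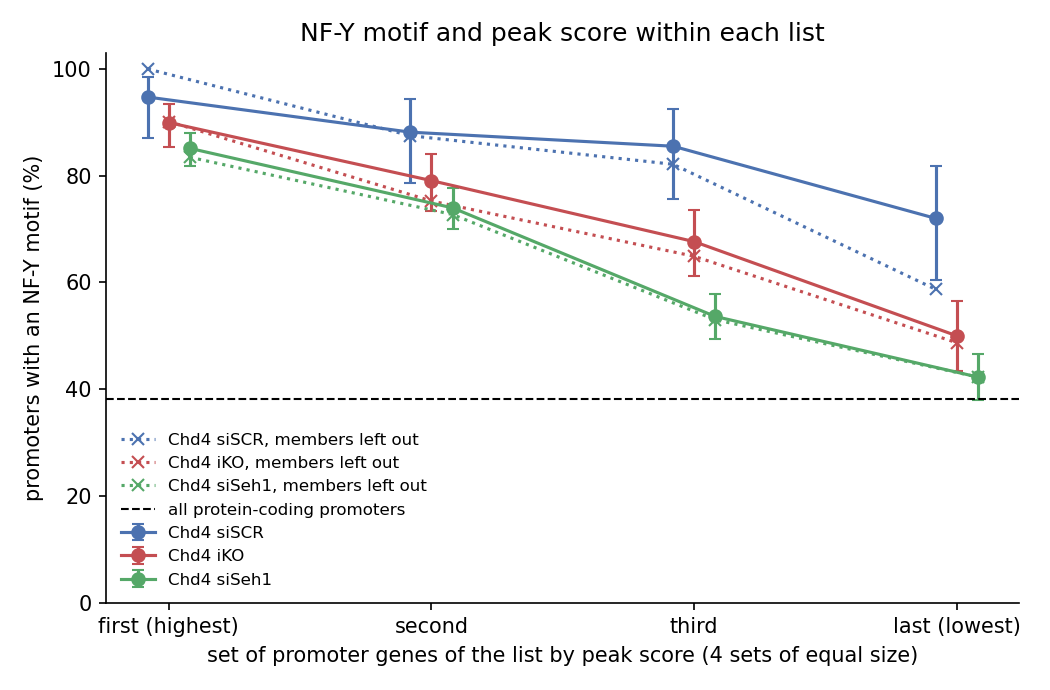
Share of promoter genes with a CCAAT box, labelled NF-Y motif (y axis, %), by set of peak score (4 sets of equal size) within each Chd4 list (x axis). Filled points with exact 95% intervals are all promoter genes with sequence, crosses leave out the members, and the dashed line at 38.19% is all protein-coding promoters. The share falls from the first to the last set in each list.

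The 18 members without CCAAT in the 300 bases were Ehmt1, Upf1, Spag7, Nfya, Acap2, E2f1, Armc6, Serf2, Fads2, Zfp91, Kat6b, Atp1b3, Trib2, Mylpf, Ubr4, Zbtb18, Rap2a and Cdk12. That these letters are not in the window says nothing of the factor. Nfya encodes the DNA-contacting subunit of NF-Y itself, and its summits lay 139, 215 and 210 bp after the start site in siSCR, iKO and siSeh1, outside the sequence examined. The same holds for others of the 18: in 12 at least 1 of the 3 summits fell outside the 300 bases, and in 6 all 3 fell inside. The GC box, GGGCGG on either strand, was present in 85.26% of member promoters (79.41 to 89.98), 46.2% of all promoters and 76.77% of CpG-rich ones. Both boxes together were found in 76.84% of members, 16.87% of all promoters and 27.39% of CpG-rich promoters. By base composition, 90.53% of member promoters were CpG rich (GC of at least 50% and observed over expected CpG of at least 0.6, interval 85.44 to 94.29), against 45.15% of all promoters. It was 87.06% (83.39 to 90.19) for iKO and siSeh1 alone and 86.89% (75.78 to 94.16) for siSCR and siSeh1 alone, with overlapping intervals. This count of 172 matches that of CCAAT, but the 2 sets of genes shared 155 members.

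Other elements were less frequent. The E-box CACGTG was in 10.53% of members and 7.835% of all promoters, with overlapping intervals. The CHR element of late cell cycle genes, TTTGAA, was in 15 members, or 7.895%, against 15.99% of all promoters and 8.562% of CpG-rich ones. Its carriers included the mitotic genes Ttk, Cenpf, Aurka, Ube2c and Kifc1. The TATA box, TATAAA, was in 4.211% of members, 12.6% of all promoters and 4.521% of CpG-rich ones. The ER stress element, CCAAT and CCACG 9 bases apart, was in 3 members, Hspa5, Dnajc3 and Hnrnpa3, or 1.579% (0.3268 to 4.545) against 0.1411% of all promoters. Divergent promoters, with the start of another gene within 1000 bp upstream on the opposite strand, made up 16.32% of members and 12.27% of all.

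Because the scale of the deposited scores is not stated, scores were ranked within a list and never compared between lists. The median member peak stood at the 88.1 percentile of siSCR, the 97.95 percentile of iKO and the 98.94 percentile of siSeh1. The other promoter genes of the same lists had medians of 75.73, 84 and 88.41. Members filled 42 of the 50 highest-scoring promoter genes of siSCR, 39 of iKO and 40 of siSeh1. Among all promoter genes of these lists their shares were 62.29%, 19.6% and 8.593%, so the 3 counts stand against unlike shares. A total of 92 members were at or above the 90th percentile in all 3 lists, 46 at or above the 95th, and 4 at or above the 99th. The siSCR percentile was the lowest of the 3 in 181 members, in the list that was shortest. Across the 223 members the scores had a Spearman rho of 0.3213 between siSCR and iKO, 0.3452 between siSCR and siSeh1 and 0.499 between iKO and siSeh1.

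**Figure D4:**
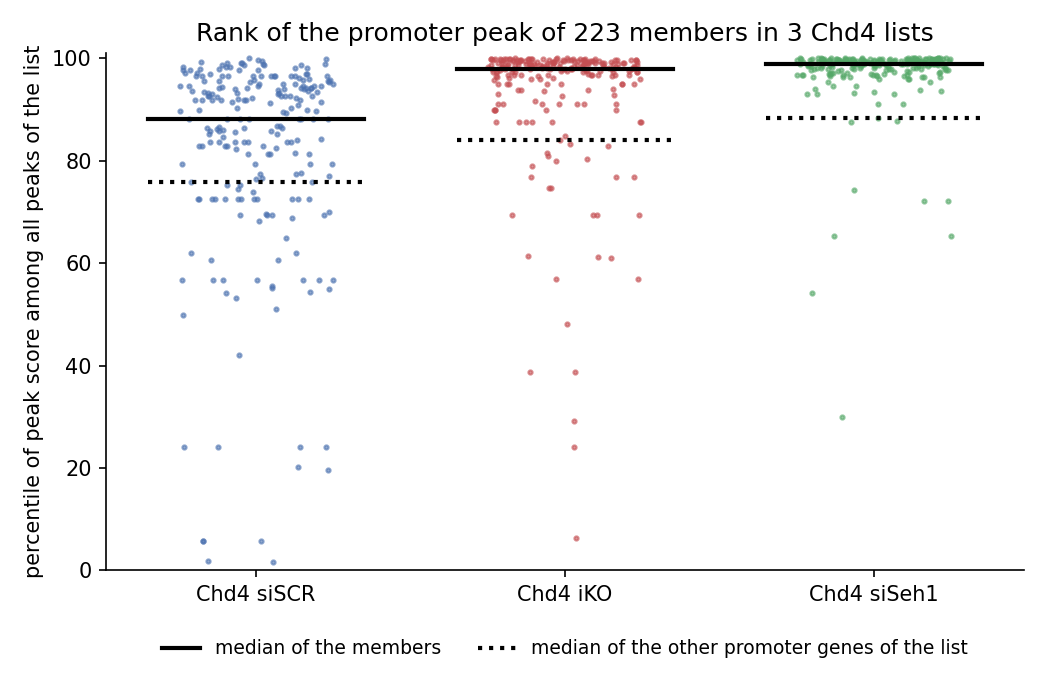
Percentile of each member's promoter peak among all peaks of its list by score (y axis, %) in the 3 Chd4 lists (x axis). Points are the 223 members, spread sideways only for visibility. The solid lines, at 88.1, 97.95 and 98.94, are member medians, and the dotted lines, at 75.73, 84 and 88.41, are the medians of the other promoter genes.

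Summits lay just upstream of the start site. The median position was −94 bp in siSCR, −88 bp in iKO and −103 bp in siSeh1, and 191, 187 and 197 of the 223 summits were upstream. Within 250 bp of the start lay 86.55% of siSCR summits, 87.44% of iKO summits and 86.55% of siSeh1 summits. For the other promoter genes of each list these shares were 76.3%, 72.13% and 75.97%. The median absolute distance was 110, 110 and 112 bp in members and 123, 123 and 113 bp in the others, so in siSeh1 the medians were nearly equal. The members' upstream share was 85.65%, 83.86% and 88.34%, against 78.52%, 64.37% and 68.47% of the others.

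**Figure D5:**
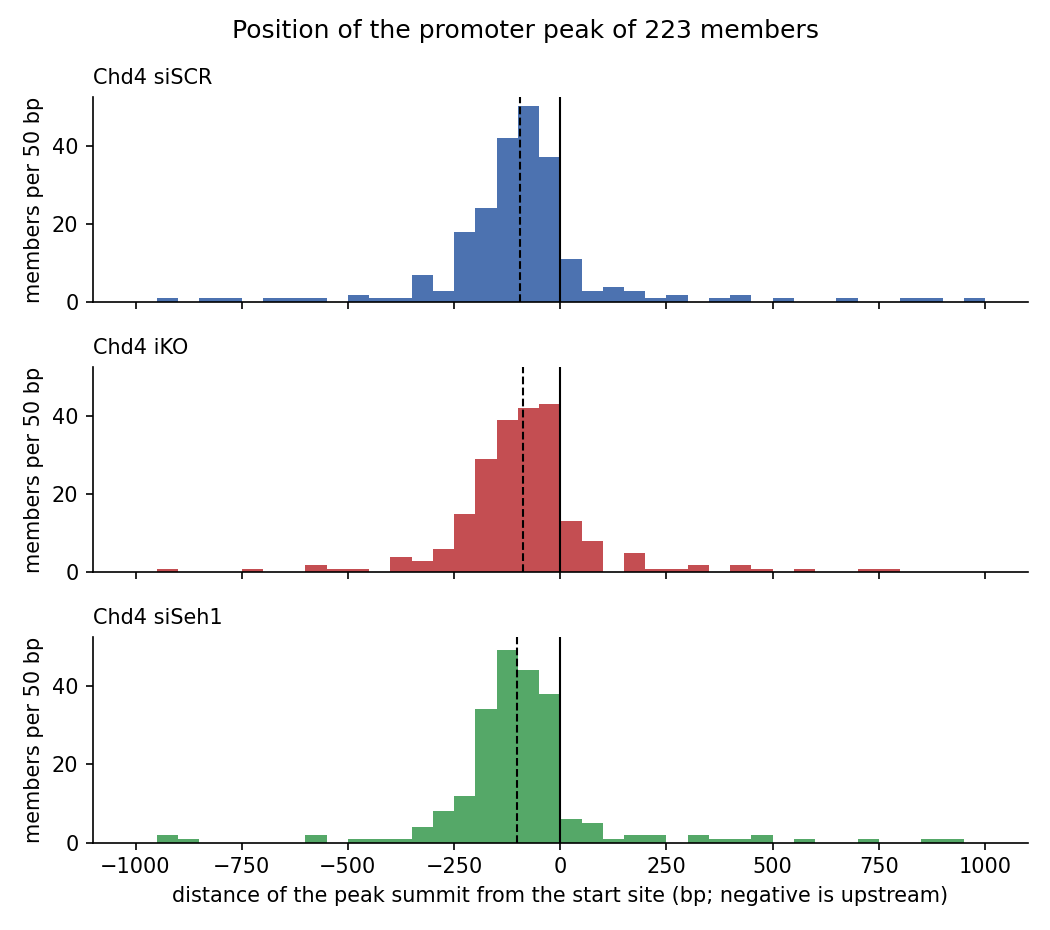
Members per 50 bp (y axis) by distance of the promoter summit from the start site (x axis, bp, negative is upstream) in each Chd4 list. The dashed lines are the medians of −94, −88 and −103 bp, and the solid line is the start site.

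The 3 summits of a member were close to each other. The distance between the outermost of them had a median of 74 bp (quartiles 45.5 and 116.5), was at most 100 bp in 153 members and at most 240 bp in 209. All 3 were upstream in 175 members and downstream in 17. The tightest were P4hb (4 bp), a protein disulfide isomerase, Tpcn1 (6 bp), an endolysosomal channel, Hspa2 (6 bp), an Hsp70 chaperone, Ywhaq (10 bp), a 14-3-3 protein, and Fmnl3 (12 bp), a formin; Tubb4b, at 12 bp, was as tight. In P4hb the summits stood 192, 196 and 192 bp after the start site. The widest were Cic, a transcriptional repressor, at 13867 bp, the histone genes Hist2h3c2 at 7715 bp and Hist2h2aa2 at 5085 bp, Dux at 1118 bp and the F-box gene Fbxl20 at 912 bp. In Cic and the histone genes the distances to the start site were small in every list, at 425, −188 and 499 bp in Cic, so the summits belong to different start sites or gene copies under the same symbol. Hist2h3c2, Hist2h2aa2, Dux and Sfi1 have near-identical copies, and their values are uncertain for that reason.

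The members just inside the limit of 1000 bp were Pnrc1, whose farthest summit was 982 bp from the start, Dux at 932 bp and Fbxl20 at 907 bp. Just outside were Zcchc14 at 1088 bp, the neural factor Sox11 at 1160 bp and the immediate early gene Fosb at 1448 bp. These values take the peak nearest the start site in each list and then the farthest of the 3. By that measure 13 members lay beyond 500 bp.

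The members fell by hand into 13 function groups made after the genes were seen, with 35 left over. The largest was transcription factors and cofactors (32 members), followed by cell cycle, spindle and DNA repair (23), metabolism and mitochondria (19), RNA processing and translation (18), chromatin and histones (17) and endoplasmic reticulum and secretion (15). By median of the mean percentile over the 3 lists, nuclear transport with 3 members (97.42), endoplasmic reticulum and secretion (97.34) and RNA processing and translation (96.41) stood highest, and cilium with 4 members (88.27) and ubiquitin ligases with 6 (88.54) lowest.

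The 2 members with the highest mean percentile, Denr and Ilf2, belonged to the RNA group. Denr, a factor for translation reinitiation, had scores of 17.9, 28.5 and 33.1 in siSCR, iKO and siSeh1, which ranked 11, 7 and 11 in the 3 lists. Ilf2, a double-stranded RNA binding partner, scored 19.5, 15.9 and 29.8 and ranked 6, 53 and 19. The helicase of nonsense-mediated decay, Upf1, scored 10.3, 27.8 and 31.8. These 3 were therefore near the top of every list, whatever its length. Txnl4a, a spliceosome component, scored 11.5, 18.2 and 30.5. The stress granule protein G3bp1 scored 12.1, 15.8 and 16.1. For Cnot1, the scaffold of the CCR4-NOT deadenylase, the scores were 10.4, 9.06 and 35. The group also held 5 genes of hnRNP proteins, which package nuclear RNA: Hnrnpc, Hnrnpl, Hnrnpr, Hnrnpab and Hnrnpa3. Of the 16 RNA genes with sequence, 15 had a CCAAT box, next to 90.53% of all members with sequence. Denr is counted among the 15, though its nearest box was 143 bp from the middle summit.

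Nuclear import and export were represented by Kpna4, Kpnb1 and Xpo1. Kpna4 (importin alpha) scored 14.7, 12.5 and 34 and ranked 21, 102 and 8. Kpnb1 (importin beta) scored 6.68, 15.5 and 31.8. Xpo1 (exportin) scored 4.99, 6.34 and 13.3, the lowest of the 3 in each list. All 3 had at least 2 CCAAT boxes, next to 74.74% of all members with sequence. Of the fixed list of 35 nucleoporin, GATOR2 and nuclear transport genes, Kpnb1 and Xpo1 were the 2 members (5.714%), and none of the listed nucleoporins was. Members were 1.018% of all protein-coding genes, so no member among so few nucleoporins is near that share and no result about them. Seh1l, which encodes Seh1, and Chd4 and Cdkn1a had 0 promoter peaks in each of the 6 lists.

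The list of endoplasmic reticulum chaperones and unfolded protein response genes had the highest share of the 23 lists. It was written with earlier results of these data known, so its share lends no independent support. Of its 24 genes, 6 were members (25%, against 1.018% of all protein-coding genes). A promoter peak was found for 10, 13 and 16 in siSCR, iKO and siSeh1, against 1.63%, 5.2% and 11.8% of all protein-coding genes. Hspa5, the chaperone BiP, scored 8.09, 19.6 and 20 and ranked 112, 27 and 87. Sdf2l1, a partner of BiP, scored 11.5, 7.8 and 9.4. Both stood in the upper part of every list. Dnajc3 (co-chaperone) scored 8.39, 7.51 and 13.3, and Pdia4 (disulfide isomerase) 5.47, 13.4 and 25.2. The stress kinase PERK, encoded by Eif2ak3, scored 4.33, 15.9 and 16.9, and Dnajb9 3.82, 5.49 and 9.96. All 14 members of the wider endoplasmic reticulum group with sequence had a CCAAT box, from 1 in P4hb, Wfs1, Spcs2 and Dnajb9 to 6 in Eif2ak3. Over all members with sequence the share was 90.53%. The wider group held the signal peptidase subunit Spcs2, the signal recognition particle protein Srp9, the segregase Vcp and the lectin Os9.

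Among cell cycle genes, Ska2, of the kinetochore-microtubule complex, ranked 52, 90 and 32 with scores of 10.1, 13.3 and 26.5. Cks2, a partner of cyclin-dependent kinases, had the highest score of any member in siSeh1, 51.8, where it ranked 2, with 7.09 in siSCR and 18.4 in iKO. Of the 30 genes of the fixed mitosis list, 3 were members: Ttk, the checkpoint kinase, Cenpf and Aurka. Their scores were 6.61, 10.6 and 30.4 for Ttk, 5.6, 10.4 and 5.41 for Cenpf, and 5.08, 7 and 8.14 for Aurka. Cenpf thus ranked 1894 in siSeh1 and Ttk 18, in the list where the gap between them was widest. The list had 4 promoter genes in siSCR, 9 in iKO and 16 in siSeh1. Promoter genes of siSCR, iKO and siSeh1 were 1.63%, 5.2% and 11.8% of all protein-coding genes. Ube2c scored 4.33, 9.42 and 16.5. Wdr62, a centrosomal gene of microcephaly, was the 1 member of 15 centriole and microcephaly genes, at 5.04, 16 and 26.7. E2f1 and E2f3, both regulators of S phase entry, were 2 of 22 genes of their list. The 25 DNA replication genes gave 0 members, near the share of 1.018% over all protein-coding genes. All 19 cell cycle members with sequence had a CCAAT box, next to 90.53% of all members with sequence. E2f1, grouped with the transcription factors, had none, but its sequence held none of its 3 summits. They spanned 37 bp, and the middle one was at −549 bp from the start site of that sequence. The deposited distances of −59, −96 and −83 bp therefore refer to another start site.

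Chromatin genes included parts of the complex that Chd4 belongs to. Of 15 NuRD genes, Gatad2a and Mbd3 were members (13.33%). Gatad2a scored 9.7, 9.48 and 19.9 and ranked 56, 206 and 90. Mbd3, the methyl-CpG-binding domain subunit, scored 4.15, 5.59 and 8.29 and ranked 797, 929 and 758. Gatad2a stood higher in each list. Ezh2 was the 1 member of 25 Polycomb genes, with scores of 7.53, 11.2 and 21.1. The H2A.Z genes H2afz (6.91, 4.12 and 10.2) and H2afv (6.5, 8.14 and 14.2) were the 2 members of 25 histone genes on the fixed list. None of the 30 BAF, CHD and histone modifier genes on the list was a member, near the share of 1.018% over all protein-coding genes. Chromatin members outside the lists included Ehmt1, the acetyltransferase Kat6b, the demethylase Kdm4b, the deacetylase Hdac4 and Sap130, of the Sin3 complex.

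Transcription factors spanned several families. Camta1, a calmodulin-binding factor, scored 9.32, 26.7 and 27.2. The corepressor gene Tle4, which codes for a Groucho protein, scored 9.39, 22 and 14.9. Zfp869, a zinc finger gene, scored 11.5, 12.3 and 13.4 and ranked 33, 117 and 272. Arntl scored 10.7, 10.7 and 21.1, and the clock genes Ciart and Nr1d2 were members as well. Some genes for the factors of both promoter boxes were among the members. They were Nfya (6.5, 14.8 and 21.9) for the CCAAT box, and Sp1 (2.24, 16.6 and 14.2), Sp2 (4.33, 6.49 and 14) and Sp4 (3.62, 11.2 and 10.1) for the GC box. Nfyb and Nfyc, for the other subunits of NF-Y, and Sp3, of the Sp family, were not members. These genes were picked by name after the members were seen, so they show no link between the boxes and the genes of their factors. Sp1 was near the bottom of siSCR, at rank 2565 of 2606, and at rank 48 in iKO. From the neural stem cell list, Id2 scored 9.32, 5.7 and 17.8 and ranked 58, 838 and 116. Klf10, a growth factor response gene at 6.68, 7.42 and 21.4, was the 1 member of 30 in its list. The 28 neuronal factors, the 24 homeobox genes and the 23 glial, microglial and vascular markers gave 0. In lists this short that is near the share of 1.018% over all protein-coding genes.

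In signalling, Prkaca, the catalytic subunit of protein kinase A, scored 15.9, 7.42 and 29.2 and ranked 17, 384 and 20. Rps6ka5, the kinase MSK1, scored 12.2, 23.2 and 9.79 and ranked 26, 18 and 568. The rank that stood apart was iKO in the former and siSeh1 in the latter. Tgfbr1 (7.94, 5.59 and 19) is a TGF-beta receptor and Stk11 (4.33, 4.62 and 13) the kinase LKB1. Among cytoskeletal genes, the tubulin Tubb4b scored 12.2, 15.9 and 24 and ranked 27, 53 and 43.

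Metabolic members were led by Pgp, a phosphoglycolate phosphatase, at 11.5, 14 and 19, and by the glycolytic kinase Pgk1. Pgk1 had the highest score of any member in siSCR, 27.1, at rank 2, with 7.42 in iKO and 13.3 in siSeh1 at ranks 384 and 274. Atp5b, at 6.31, 5.36 and 10.2, was the 1 member of 31 respiratory chain and mitochondrial ribosome genes on the list. For sterols, 3 of 26 genes were members (11.54%): Insig1, a brake on cholesterol synthesis (5.56, 11.5 and 13), and the enzymes Msmo1 (5.87, 5.7 and 9.23) and Hmgcs1 (3.62, 9.27 and 16.3). The list had 5, 11 and 19 promoter genes in siSCR, iKO and siSeh1. Of all protein-coding genes, 1.63%, 5.2% and 11.8% were promoter genes of siSCR, iKO and siSeh1, and 1.018% were members. The sterol and respiratory chain lists were written with earlier results of these data known. The enzyme Fads2 and the oxysterol-binding protein Osbp belong to the same function group outside the list.

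Lists with no member were also those of 28 amino acid stress and tRNA synthetase genes, 21 heat shock chaperones, 24 p53 pathway genes, 30 splicing and RNA-binding genes and 30 ribosomal protein genes. Members were 1.018% of all protein-coding genes, so 0 in a list this short is near that share and no result about the members. Ube2c was the 1 member of 33 proteasome and ubiquitin genes. Over the 23 lists together, 27 of 599 genes were members (4.508%). The lists were written with earlier results of these data known, so their shares lend no independent support.

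At the low end of the ranking were genes strong in 1 list and weak in another. Rab5b, of early endosomes, scored 2.34, 2.86 and 11, and Banp, a nuclear matrix protein, 2.96, 6.34 and 3.02. Txlna, a syntaxin binder, scored 2.34, 6.34 and 3.79. Tomm40, the channel of the mitochondrial outer membrane, scored 4.15, 2.33 and 17.6, so that it ranked 19955 in iKO and 126 in siSeh1. The carrier Slc25a36 scored 7.64, 3.06 and 4.06 and ranked 127 in siSCR and 15087 in iKO. Membership of these genes rests on a peak in the lower part of at least 1 list. Fam204a, an uncharacterised gene, was at the other end with 8.41, 21.2 and 28.4.

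Few members had a promoter peak in the other 3 lists, which the rule did not use. In the Seh1 flag list 5 of 223 did, or 2.242% (exact 95% interval 0.7319 to 5.155), against 1.34% of all protein-coding genes and 1.18% of the other siSeh1 promoter genes. The Seh1 Ctrl list held 2, or 0.8969% (0.1088 to 3.202), against 1.03% and 0.6745%. The Chd4 Ctrl list, with 4 promoter genes in all (0.0183%), held 0, with an exact upper bound of 1.641%. At 1000 bp the intervals of both Seh1 lists include the background shares, so this overlap is no result about the members. Within 2000 bp of the start site, 15 members had a Seh1 flag peak, or 6.726% (3.813 to 10.85), against 3.37% of all protein-coding genes and 4.511% of the other siSeh1 promoter genes. That interval lies above the share of all genes and includes that of the other siSeh1 promoter genes. At the same window the Seh1 Ctrl list held 3 members, or 1.345% (0.2783 to 3.881). Its shares were 2.324% of all protein-coding genes and 1.771% of the other siSeh1 promoter genes, both inside that interval. The Chd4 Ctrl list again held 0. A peak of the Seh1 flag list lay within 10 kb of 23.77% of members and 24.33% of the other siSeh1 promoter genes, and a peak of the Seh1 Ctrl list within 10 kb of 8.072% and 12.18%.

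Those 7 genes were Dux, Fam192a, Miga2, Pgk1 and Rab11b in the Seh1 flag list, and Kifc1 and Sfi1 in the Seh1 Ctrl list. In Pgk1 the Seh1 summit, with a score of 11.3 at the 98.36 percentile of its list, lay 120 bp upstream of the start and between 29 and 79 bp from the Chd4 summits. Fam192a shows why a shared symbol is not a shared site: its Seh1 summit was 23 bp from a start site but at least 10435 bp from every Chd4 summit of the gene. In Miga2 (mitochondrial fusion) and Rab11b (recycling endosomes) the Seh1 summits were at −517 and −513 bp, and at least 434 and 479 bp from the Chd4 summits. The Kifc1 interval, at a mitotic kinesin gene, was centred 358 bp after the start and 365 to 384 bp from the Chd4 summits. The Sfi1 interval was at least 6366 bp from them.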

How the data were processed

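Peak lists of 6 chromatin immunoprecipitation libraries were used. Per the file headers, the authors annotated peaks with HOMER on mm10. The deposited score has no stated scale, so it was used as a rank within a list. Per the file headers, 5 lists hold summits; the Seh1 Ctrl list holds intervals whose deposited scores are all 0. Per the submitters' processing notes, Bowtie2 and HOMER were used, and human builds are named, which differs from the headers. Peak caller, threshold, input and depth: not given in the sources used here. A gene's peak in a list was its highest-scoring one within 1000 bp of the start site, by the deposited distance. Percentiles are over all peaks of a list, and rank 1 is the highest score. Overlap counts, medians and exact Clopper-Pearson 95% intervals were computed with Python 3.11.15, pandas 2.3.3 and scipy 1.17.1, tested on simulated data. Sequences came from RefSeq (GRCm38.p6), with 190 of 223 members found, taking the entry nearest the summits, whereas shares over all promoters count every entry of protein-coding genes. Both strands were searched.

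Members and lists were chosen with earlier results of these data known. The 20 motifs were set after the lists were opened, and word counts, box numbers, flanks, positions and score sets were added after the CCAAT share was seen. Genes named were the 20 first and 5 last by mean percentile, up to 6 members of each list, the 5 smallest and 5 largest distances between summits, members with a Seh1 or Chd4 Ctrl peak, those nearest the window's limit, and Seh1l, Chd4 and Cdkn1a. Predicted genes were left out. Other genes were named for their role or sequence after their values were seen. Another window, minimum score, list length, peak choice, annotation and sequence stretch were tried.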

Additional observations from a re-analysis of the deposited data

How the results depend on the processing

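With 1 library a group, no library could be left out. No paired analysis was possible because the result comes from no test and each group has 1 library. The 223 members became 210 at a window of 500 bp, 227 at 2000 bp, 211 at a minimum score of 3, 181 with every list shortened to the length of siSCR and 207 by the promoter annotation. At a minimum score of 5 they were 118, a setting that assumes a common scale. Ranked among promoter peaks only, the median percentiles were 58.59 in siSCR, 79.52 in iKO and 91.68 in siSeh1. At 2000 bp, 15 members had a Seh1 flag peak, or 6.726%, against 3.37% of all protein-coding genes and 4.511% of the other siSeh1 promoter genes. A Seh1 Ctrl peak was then found for 3 members, or 1.345%, against 2.324% and 1.771%, and a Chd4 Ctrl peak for 0. Under stricter limits 68.42% were CpG rich. In 100 bases around the start site 46.32% of members had a CCAAT box, against 13.55% of all promoters. Within 50 bases of the middle summit, a setting chosen after seeing the data, 86.71% of 143 members had one and 44.76% a GC box.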
